A study of Mus musculus with 14 samples.

Results

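Lef1, Tcf7, Tcf7l1 and Tcf7l2 are the 4 mouse genes of the Tcf and Lef family, the DNA-binding factors at the end of the canonical Wnt pathway. Around each of them, the regions occupied by p300, Rxrα, Sp5 and Zeb2 were collected from chromatin immunoprecipitation and sequencing (ChIP-seq) of gastruloids and of mouse embryonic stem cells (mESCs). A region was a merged stretch with a peak in both replicates of a group. It belonged to a gene when its strongest summit had an end of that gene as the nearest end of any protein-coding gene, within 100 kb. Of 21887 protein-coding genes, these 4 received 120 of 132214 regions summed over the 6 immunoprecipitated groups.

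Members of this family bind the same short sequence through a shared HMG box. Without Wnt signal they hold Groucho (Tle) corepressors at their target genes, and with it they bind β-catenin, which recruits coactivators. Tcf7l1 is known in mESCs chiefly as a repressor that limits the pluripotency factors, while Lef1 and Tcf7 are known as activators of Wnt targets in the primitive streak and the presomitic mesoderm. Tcf7l2 is known from the gut epithelium and the nervous system, and its products act in either direction.

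Gastruloids are aggregates of mESCs that elongate and form derivatives of the germ layers. Here they were seeded with 300 cells per well, received 3 µM CHIR99021, a GSK3 inhibitor that activates the Wnt pathway, after 48 h, and were analysed at 120 h. The mESCs were the undifferentiated cells of the same line, kept in serum with LIF. All groups came from the E14_triple reporter line, and the growth protocol describes a line with reporters of Brachyury and SOX17. The p300 groups, gastruloids and mESCs, carried endogenous p300-V5-miniTurboID and were precipitated with a V5 antibody. The Rxrα groups, gastruloids and mESCs, and the Sp5 and Zeb2 groups, gastruloids only, carried a tag of HA and the FKBP12F36V degron on the endogenous protein and were precipitated with HA antibodies. Each of these 6 groups had 2 replicates, and 1 input per cell type came from the p300 line. The labels do not say whether the replicates were separate cultures or how many clones the tagged lines represent, so the spread between them may be technical. p300 is a histone acetyltransferase and coactivator found at active enhancers. Rxrα is a nuclear receptor and the partner of the retinoic acid receptors. Sp5 belongs to the Sp zinc-finger family and is itself a Wnt target, and Zeb2 is a repressor of epithelial genes.

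The lists used here held between 3111 and 75346 peaks per immunoprecipitation. Rxrα in gastruloids was the most uneven group, with 29867 peaks in replicate 1 and 3111 in replicate 2, and Zeb2 had 44310 and 12222, so regions of these groups were set by the shorter list. The median peak of a library held 12 to 31 fragments at its summit, as recovered from the authors' values for the peaks that could be solved. No peak of either input lay near the 4 genes, and none of their peaks was removed for overlapping an input peak. Expression was not measured, and the cell types were checked only through p300: all 8 gastruloid marker genes (T, Tbx6, Cdx2, Meox1, Uncx, Pax3, Msgn1 and Hoxb1) had more gastruloid-only than mESC-only p300 regions, against 69.8% of all genes with such regions. Of 8 mESC marker genes, 5 had fewer, among them Esrrb with 6 and 8; Sox2 (6 and 5) and Klf4 (3 and 2) had more, and Nanog had neither class. The share of all genes with fewer was not computed. Both marker lists were chosen with earlier results of these data known, so this check is not independent. In a mixed culture, a region occupied in few cells and one occupied weakly in all cells cannot be told apart.

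In the mouse build GRCm38, Lef1 lies at chr3:131110297-131224357 on the plus strand and spans 114.1 kb. Tcf7 lies at chr11:52246527-52283383 on the minus strand and is the shortest, at 36.9 kb. Tcf7l1 lies at chr6:72626371-72789045 on the minus strand and spans 162.7 kb, and Tcf7l2 lies at chr19:55741797-55933659 on the plus strand and spans 191.9 kb. Positions below are distances from the start of the gene in the direction of transcription. Exons and introns were not annotated here, so a summit is given as upstream, inside or downstream of the gene.

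At the gene starts the 4 members had the same pair of gastruloid peaks. A p300 region and an Sp5 region lay over the promoter of each gene in gastruloids, and no p300 region of mESCs did. Their promoters are printed here because the p300 regions cover these windows and the Sp5 regions overlap them; each is the RefSeq window (GRCm38) of 250 bases before to 50 bases after the first listed start (for Tcf7 that start lies inside the annotated gene), 5′ to 3′ on the coding strand, and capitals mark the GC box GGGCGG, the motif of Sp factors, or its reverse complement CCGCCC.
Lef1 promoter, plus strand, chr3:131110047-131110346: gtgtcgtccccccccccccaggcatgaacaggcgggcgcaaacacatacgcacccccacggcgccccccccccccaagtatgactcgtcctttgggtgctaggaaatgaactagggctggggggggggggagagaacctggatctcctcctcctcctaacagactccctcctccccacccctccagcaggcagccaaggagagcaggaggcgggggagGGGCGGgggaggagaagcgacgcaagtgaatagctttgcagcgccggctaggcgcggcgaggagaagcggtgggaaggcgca
Tcf7 promoter, minus strand, chr11:52282965-52283264: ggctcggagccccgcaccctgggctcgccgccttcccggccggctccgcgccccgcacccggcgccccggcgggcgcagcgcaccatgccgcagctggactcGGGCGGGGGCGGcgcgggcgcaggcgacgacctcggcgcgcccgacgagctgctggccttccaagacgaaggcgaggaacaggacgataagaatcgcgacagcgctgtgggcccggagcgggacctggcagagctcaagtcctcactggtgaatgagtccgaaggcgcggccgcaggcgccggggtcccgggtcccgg
Tcf7l1 promoter, minus strand, chr6:72788996-72789295: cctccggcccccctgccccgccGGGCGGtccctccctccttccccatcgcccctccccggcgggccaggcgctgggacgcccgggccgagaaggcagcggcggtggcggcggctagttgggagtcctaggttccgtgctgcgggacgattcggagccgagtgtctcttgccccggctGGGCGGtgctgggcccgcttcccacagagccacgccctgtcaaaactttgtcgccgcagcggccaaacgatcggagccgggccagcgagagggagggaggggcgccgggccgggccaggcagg
Tcf7l2 promoter, plus strand, chr19:55741560-55741859: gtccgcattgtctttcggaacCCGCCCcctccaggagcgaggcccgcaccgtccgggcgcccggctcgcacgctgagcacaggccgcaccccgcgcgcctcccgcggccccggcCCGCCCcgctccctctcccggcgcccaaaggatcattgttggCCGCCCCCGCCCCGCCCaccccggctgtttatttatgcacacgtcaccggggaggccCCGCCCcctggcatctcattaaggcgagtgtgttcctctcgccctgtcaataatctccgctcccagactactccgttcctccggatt

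GC boxes on either strand numbered 1 in the Lef1 window, 2 in that of Tcf7, 2 in that of Tcf7l1 and 6 in that of Tcf7l2. The whole Tcf7 window lies inside the annotated gene. An atg stands before its 2 boxes, and the reading frame from it has no stop in the window. These 2 matches may thus be coding sequence, which was not annotated here. The Sp5 region covered the boxes of Lef1, Tcf7l1 and Tcf7l2. At Tcf7 it overlapped 70 of the 300 bases, its summit lay outside the window, and it covered neither of the 2 boxes. A GC box was present in 35.7% of 32851 promoter windows of the same length. The windows were rich in G and C, at 67.3% for Lef1, 76.3% for Tcf7, 75.3% for Tcf7l1 and 70.0% for Tcf7l2. The Tcf and Lef motif in its forms CTTTGAT and CTTTGAA, searched on both strands, was found in none of the 9 listed windows of the 4 genes; CTTTGAT was in 3.73% and CTTTGAA in 5.14% of all windows. The E-box CAGGTG of Zeb factors, present in 20.2% of all windows, matched neither strand of the 4 sequences above, and the nuclear receptor half-site AGGTCA, present in 16.3%, did not match either. Both do occur in the second listed window of Tcf7, and CAGGTG also in the second of Lef1, which overlaps the first.

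The Sp5 peaks were close to the start in each gene. At Tcf7, which had the strongest of them, the Sp5 summit lay 4 bp upstream of the gene, with a fold of 15.4 and 9.56 over local background in the 2 replicates (the authors' fold enrichment) and 123 and 73 fragments. This peak ranked in the top 1.90% and 5.52% of the Sp5 lists. At Tcf7l2 the summit lay 100 bp upstream of the start with folds of 10.1 and 6.48, and at Tcf7l1 it lay 190 bp upstream with folds of 8.10 and 7.21. At Lef1 it lay 2 bp inside the gene, with the lowest folds of the 4, 4.19 and 3.57, from 28 and 24 fragments. The p300 peaks at the same places were weak. Their folds in the 2 gastruloid libraries were 4.64 and 5.45 at Tcf7, 2.70 and 3.29 at Lef1, 2.35 and 2.94 at Tcf7l1, and 2.70 and 3.95 at Tcf7l2. In mESCs only 1 p300 library had a promoter peak, at Tcf7, with a fold of 2.63 from 18 fragments.

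These promoter peaks were common among genes. Of 17492 genes with a promoter window in the table, 46.9% had a p300 region of gastruloids there, 35.6% an Sp5 region, 32.4% both, and 28.1% both with no p300 region of mESCs. A p300 region of mESCs lay over the promoter of 6.32% of the genes. Zeb2 had a region at the promoter of Lef1 alone, with folds of 5.62 and 4.78 and 53 and 18 fragments, against 23.2% of all genes. The other 3 promoters had a Zeb2 peak in replicate 1 only, with folds of 2.52 at Tcf7, 4.54 at Tcf7l1 and 4.39 at Tcf7l2. No member had an Rxrα region at its promoter in gastruloids (4.46% of genes did) or in mESCs (17.2%). Single Rxrα libraries did have peaks there: gastruloid replicate 1 at Tcf7 and Tcf7l1, with folds of 3.77 and 5.05, and mESC replicate 1 at Tcf7, with a fold of 3.36.

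**Figure D1:**
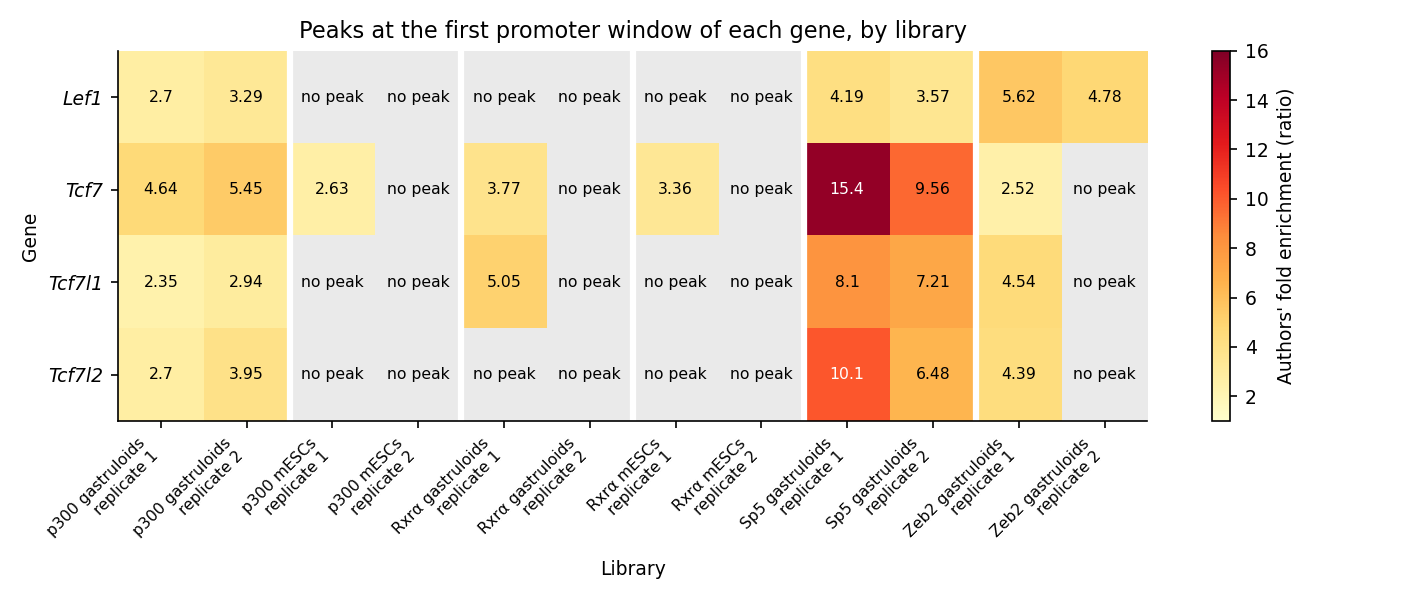
Authors' fold enrichment (ratio of signal to local background, colour scale and printed value) of the peak over the first promoter window of each gene, in each of the 12 immunoprecipitation libraries; grey cells had no peak. All 4 genes have p300 and Sp5 peaks in both gastruloid replicates, with Sp5 highest at Tcf7 (15.4 and 9.56), and only Tcf7 has a p300 peak in mESCs (2.63, replicate 1).

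All 4 genes had p300 regions in gastruloids (68.3% of genes did) and in mESCs (49.3%). With those at the starts included, each gene had more p300 regions in gastruloids than in mESCs. The whole series also held more, 53025 p300 regions in gastruloids and 31014 in mESCs. Lef1 had 11 p300 regions in gastruloids and 2 in mESCs, Tcf7 had 6 and 2, Tcf7l1 had 16 and 13, and Tcf7l2 had 18 and 7. The median was 2 among genes with any, in either cell type. Of the 21887 genes, 32 had 18 or more p300 regions in gastruloids, 62 had 16 or more, 357 had 11 or more and 1794 had 6 or more. In mESCs 39 had 13 or more, 505 had 7 or more, and 5774 had at least the 2 regions of Lef1 and of Tcf7. These counts were not scaled for gene length or for the distance to the next gene. In gastruloids the counts of the 4 genes rose with length, from Tcf7 (36.9 kb) to Tcf7l2 (191.9 kb). In mESCs Tcf7l1 had more than the longer Tcf7l2. The part of gene length in these ranks was not tested. A region was called gastruloid-only when both gastruloid libraries and no mESC library had a peak there, mESC-only in the reverse case, and shared when all 4 libraries did. Near the 4 genes, 35 p300 regions were gastruloid-only, 10 were mESC-only and 11 were shared. The gastruloid-only class thus made up 77.8% of the regions found in a single cell type (35 of 45, exact Clopper-Pearson 95% interval 62.9% to 88.8%, counting error only), beside 71.1% for regions near any gene. Of all 51 p300 regions in gastruloids, 35 were gastruloid-only, beside 64% over all genes, and of the 24 in mESCs, 10 were mESC-only, beside 43.8%. In all 4 genes the gastruloid-only class outnumbered the mESC-only class, as it did in 69.8% of the genes with such regions. Both shares of the family were near the background. With the gastruloid and mESC lists shortened to equal length the gastruloid-only count was 21, and without p300 mESC replicate 2 the mESC-only count was 16. In the lists of equal length Tcf7l1 had 4 gastruloid-only and 7 mESC-only p300 regions, the reverse order.

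**Figure D2:**
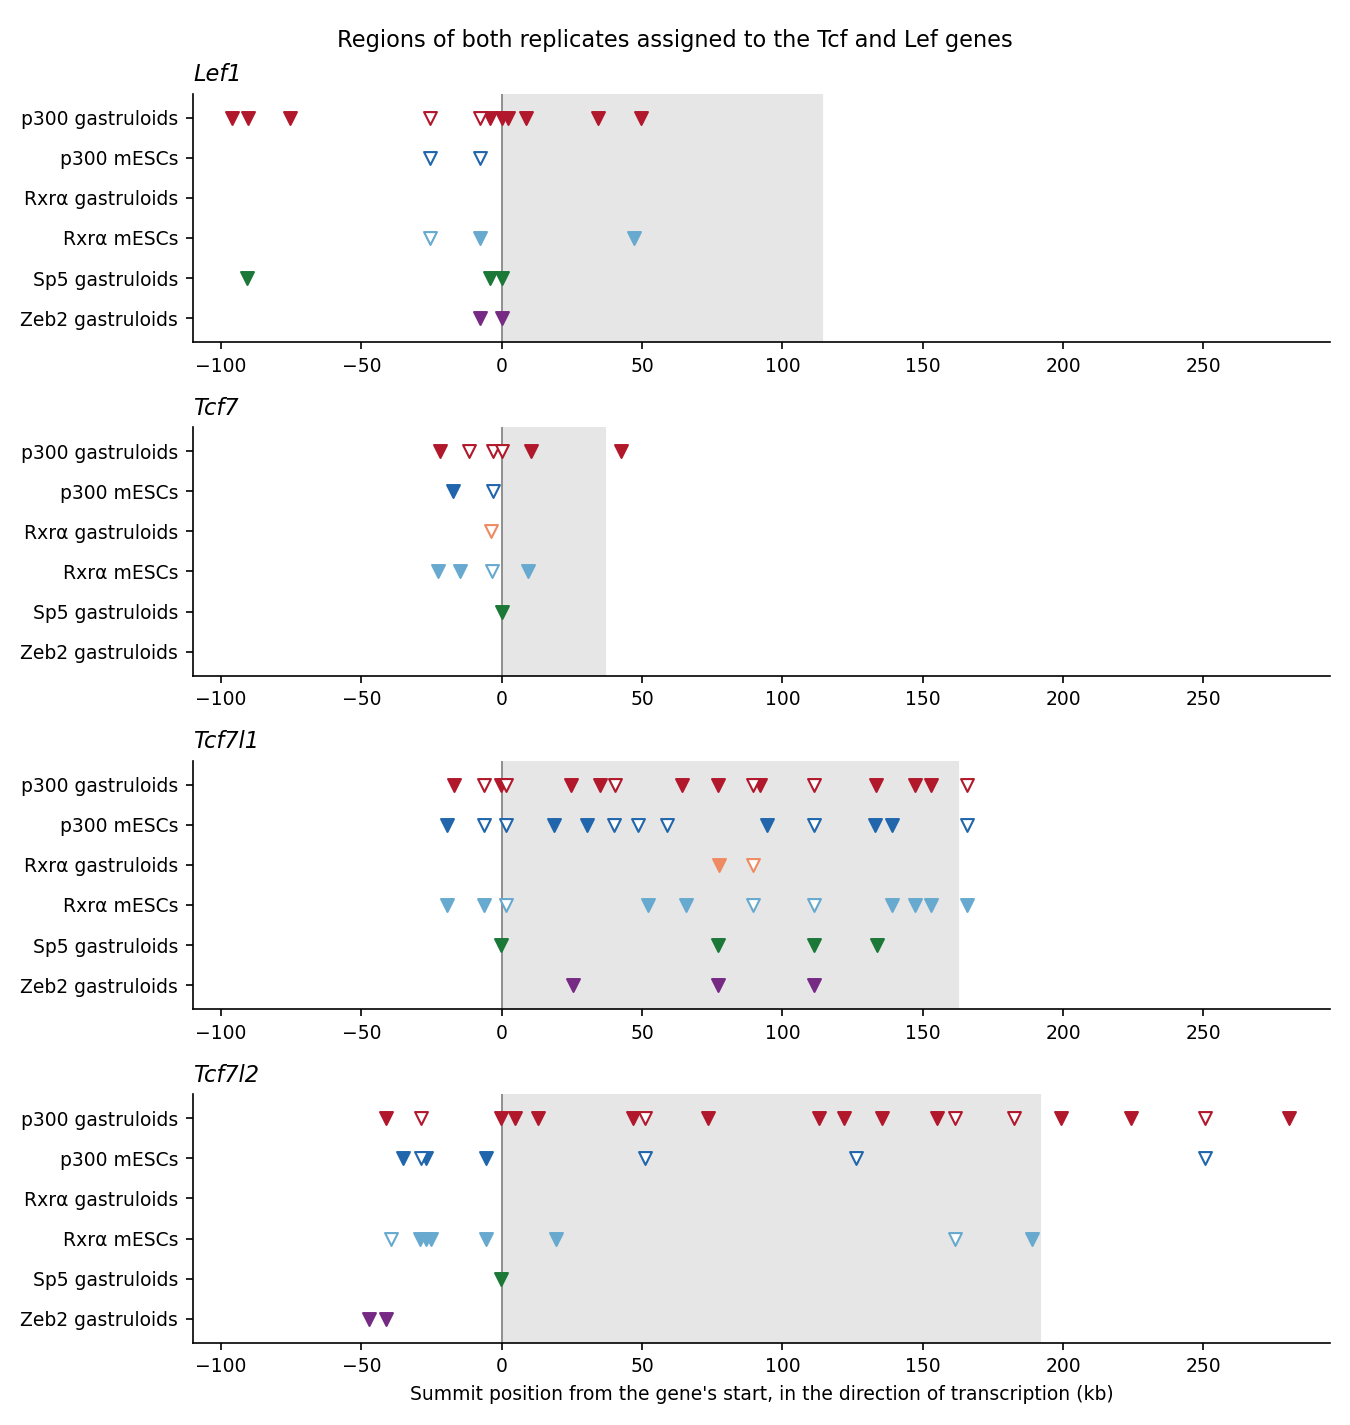
Summit positions (kb from the start of the gene, in the direction of transcription) of all 120 regions by gene and group; grey bands are the gene bodies. For p300 and Rxrα, filled triangles are regions of a single cell type and open ones are shared or have a peak in 1 library of the other cell type; Sp5 and Zeb2 are filled throughout. The Lef1 panel has 11 p300 regions in gastruloids and 2 in mESCs, both open, and the Tcf7l1 panel has 16 and 13.

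The share of each gene in the p300 peaks of the family was a measure added after the counts were seen. It was lower in gastruloids for Tcf7l1 and higher for Lef1 and Tcf7l2. Near Tcf7l1 there were 18 and 18 p300 peaks in the gastruloid libraries and 17 and 14 in the mESC libraries. Out of all p300 peaks near the 4 genes, those of Tcf7l1 made up 29.5% and 27.7% in gastruloids (18 of 61 and 18 of 65) and 48.6% and 56.0% in mESCs (17 of 35 and 14 of 25). The mean share was 28.6% ± 1.28 in gastruloids and 52.3% ± 5.25 in mESCs (SD, n = 2 each), a difference of -23.7 percentage points, and the libraries of the 2 cell types did not overlap. An exact permutation test over libraries gave p = 0.333, two-sided, the smallest p that 2 libraries against 2 allow. The share of Tcf7l1 was lower in gastruloids although its own count was higher there; the counts of Lef1 and Tcf7l2 differed more between the cell types. The shares of the 4 genes in a library add up to the whole, so they do not vary independently. Within 20 kb the mean shares of Tcf7l1 were 29.9% in gastruloids and 44.4% in mESCs, and counting every peak inside a gene or within 100 kb of its ends they were 30.8% in gastruloids and 40.6% in mESCs, a difference of -9.75 points.

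Lef1 and Tcf7l2 took the larger shares in gastruloids. Near Lef1 there were 12 and 16 p300 peaks in gastruloids and 3 and 2 in mESCs, which is 22.1% ± 3.5 of the family's peaks in gastruloids and 8.29% ± 0.404 in mESCs (SD, n = 2 each). Near Tcf7l2 there were 24 and 24 in gastruloids and 10 and 7 in mESCs, or 38.1% ± 1.71 in gastruloids and 28.3% ± 0.404 in mESCs (SD, n = 2 each). For neither gene did the libraries of the 2 cell types overlap, and the exact permutation test gave p = 0.333 for each. Near Tcf7 there were 7 and 7 in gastruloids and 5 and 2 in mESCs, and its mean share was 11.1% in both cell types. In lists of equal length the Tcf7l2 libraries overlapped, with mean shares of 32.6% in gastruloids and 31.3% in mESCs, while Tcf7l1 stood at 27.0% in gastruloids and 53.0% in mESCs.

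**Figure D3:**
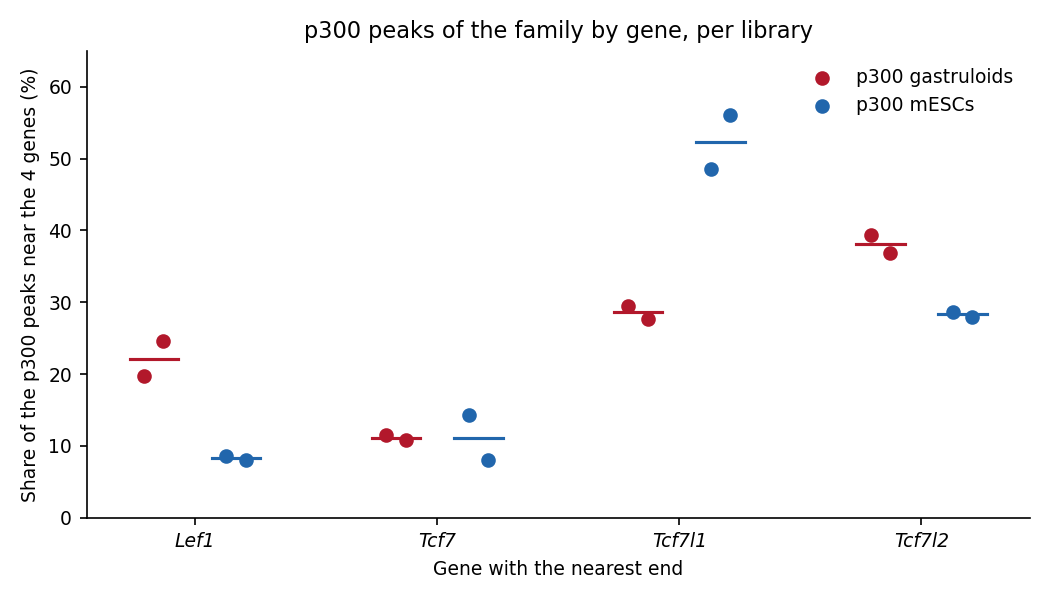
Share of the p300 peaks near the 4 genes that belongs to each gene (percent), with 1 point per library and a line at the mean of the 2 libraries; gastruloids are red and mESCs are blue. Tcf7l1 has 27.7% to 29.5% in gastruloids and 48.6% to 56.0% in mESCs, while Lef1 and Tcf7l2 are higher in gastruloids.

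The same peak counts were also set against the length of each list, so these values are not independent of the shares. Per 10000 peaks of a library, Lef1 had 2.01 ± 0.157 p300 peaks in gastruloids and 0.620 ± 0.0768 in mESCs, and Tcf7l2 had 3.49 ± 0.436 in gastruloids and 2.11 ± 0.189 in mESCs (SD, n = 2 each). Tcf7l1 had 2.62 ± 0.327 in gastruloids and 3.89 ± 0.0978 in mESCs, so that it was lower in gastruloids on this scale and higher by 2.5 peaks in the unscaled count. Its gastruloid-only regions outnumbered its mESC-only regions by 10 to 6, and in lists of equal length the difference was -3. Tcf7 overlapped between cell types, at 1.02 ± 0.127 in gastruloids and 0.844 ± 0.395 in mESCs. For the family as a whole the values were 9.15 ± 0.734 in gastruloids and 7.47 ± 0.563 in mESCs, which did not overlap (exact permutation p = 0.333, the smallest possible).

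Lef1, an activating member, had its strongest p300 regions upstream and in both cell types. The region 25.5 kb upstream had folds of 16.6 and 20.5 in gastruloids and 19.9 and 16.3 in mESCs. The region 7.83 kb upstream had folds of 15.1 and 17.9 in gastruloids and 17.4 and 13.8 in mESCs. These were the only p300 regions of Lef1 in mESCs, and both also held an Rxrα region in mESCs. The remaining 9 were gastruloid-only: 3 far upstream, at 96.2, 90.5 and 75.3 kb, 1 at 4.22 kb upstream, 1 at the start, and 4 inside the gene, at 2.19, 8.57, 34.1 and 49.8 kb. Folds among these 9 were highest at 75.3 kb upstream (11.2 and 12.7) and 90.5 kb upstream (10.3 and 12.6); next came 8.57 kb inside (9.92 and 10.1) and 34.1 kb inside (7.42 and 10.2). The region 96.2 kb upstream was the farthest inside the 100 kb limit, and 5 more p300 regions of gastruloids beyond it, the nearest at 111689 bp, had a Lef1 end as the nearest gene end.

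Tcf7, the other activating member, had 1 strong p300 region. It lay 10.6 kb inside the gene and was gastruloid-only, with folds of 12.6 and 20.0 from 96 and 101 fragments, in the top 5.10% and 2.39% of the p300 lists. No other factor had a peak there in any library. The merged site 3.57 kb upstream was the only one near the 4 genes with regions of p300 and Rxrα in both cell types, all of them weak: p300 had folds of 2.94 and 4.64 in gastruloids and 4.24 and 3.90 in mESCs, and Rxrα had 5.25 and 3.97 in gastruloids and 5.85 and 4.66 in mESCs. Within this site the Rxrα region of gastruloids did not overlap the p300 region of mESCs. The neighbours Vdac1, Skp1 and a cluster of olfactory receptor genes lie close, and of 15 p300 regions of gastruloids inside Tcf7 or within 100 kb of its ends, 9 were nearest to an end of another gene. In mESCs this held for 9 of 11 p300 regions. Counting every region of that window, 7 p300 regions were gastruloid-only and 6 were mESC-only.

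Tcf7l1, the repressor known from mESCs, held the strongest region of the family 1.5 kb inside the gene. There p300 had folds of 17 and 23.7 in gastruloids and 31.9 and 31.1 in mESCs. The mESC summits held 1328 and 958 fragments and ranked in the top 0.289% and 0.352% of their lists; the gastruloid summits held 238 and 265 fragments, in the top 0.786% and 0.279%. The fragment numbers are not scaled for depth and are not compared between libraries. Rxrα in mESCs had its strongest peak of the family at the same place, with folds of 19.4 and 17.1, and in gastruloids only replicate 1 had an Rxrα peak, with a fold of 3.66.

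The rest of Tcf7l1 was divided between the cell types. Of its p300 regions, 10 were gastruloid-only, 6 were mESC-only and 5 were shared; 12 of its 16 p300 regions in gastruloids lay inside the gene, as did 10 of its 13 in mESCs. No share inside genes over all genes was computed to set beside these counts. The strongest gastruloid-only region, at 77.2 kb, was the one site of the family with all 4 factors in gastruloids. Its folds were 17.5 and 20.2 for p300, 9.14 and 4.10 for Rxrα, 19.6 and 12.4 for Sp5, and 7.35 and 4.33 for Zeb2, and neither p300 nor Rxrα had a peak there in mESCs. The site at 111 kb was the most widely shared, with regions of 5 groups and peaks in 11 of 12 libraries; p300 had folds of 13.4 and 17 in gastruloids and 5.70 and 5.28 in mESCs. Around 133 kb a pair of adjoining sites differed by cell type: the first was mESC-only with p300 folds of 13.9 and 13.1, and the second, 134 kb from the start, was gastruloid-only with p300 folds of 7.61 and 12.1 and an Sp5 region.

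Other sites of Tcf7l1 were seen in mESCs alone or had the higher folds there. At 19.6 kb upstream p300 had no peak in gastruloids and folds of 10.7 and 9.90 in mESCs, with an Rxrα region in mESCs at folds of 18.7 and 14.5. At 166 kb from the start, past the far end, p300 had folds of 6.45 and 5.48 in gastruloids and 17.6 and 16.4 in mESCs. At 147 kb, inside the gene, the order was the other way: p300 was gastruloid-only with folds of 14.4 and 16.5, while Rxrα had a region there in mESCs with folds of 9.08 and 6.43. Folds come from separately made lists, so they show which peaks were called and how strong each was over its own background, not a tested change in height.

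Tcf7l2, the longest gene of the family, had the most p300 regions in gastruloids, 18, of which 13 were gastruloid-only. They were spread from 41.1 kb upstream to 281 kb from the start, past the far end; 11 lay inside the gene, 3 upstream and 4 downstream. By fold the strongest were both outside the gene: the one at 281 kb, 88779 bp past the far end, had folds of 12.8 and 16.2, and the one 41.1 kb upstream had folds of 11.7 and 13.5 together with a Zeb2 region at 6.58 and 4.57. Inside the gene, the gastruloid-only region at 4.75 kb had folds of 8.05 and 8.53 and the largest significance of any p300 region of this gene in gastruloids. A further 2 p300 regions of gastruloids with a Tcf7l2 end as the nearest gene end lay beyond the limit, the nearest at 104112 bp.

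In mESCs the strong p300 regions of Tcf7l2 were upstream. The region 28.9 kb upstream was shared, with folds of 7.87 and 8.62 in gastruloids and 14.9 and 15.8 in mESCs. The region 5.52 kb upstream was mESC-only, with p300 folds of 13.8 and 14.8 and an Rxrα region of mESCs at 14.0 and 11.9. Inside the gene lay 11 of 18 p300 regions in gastruloids and 2 of 7 in mESCs. The share inside genes over all genes was not computed, so these counts have no reference.

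Regions of Rxrα near the 4 genes came mostly from the mESC lists. It had 3 regions in gastruloids and 26 in mESCs: 0 and 3 at Lef1, 1 and 4 at Tcf7, 2 and 11 at Tcf7l1, and 0 and 8 at Tcf7l2. Any Rxrα region was found at 8.73% of all genes in gastruloids and at 49.4% in mESCs. The 3 regions of gastruloids all lay at a p300 region, beside 86% over all genes. In mESCs 34 genes had 11 or more Rxrα regions, against a median of 1 among genes with any. This count too was not scaled for gene length or for the distance to the next gene. By class, 1 region was gastruloid-only, at 77.2 kb in Tcf7l1, 19 were mESC-only and 2 were shared, 1 each at Tcf7 and Tcf7l1. Over all genes, the gastruloid-only share of Rxrα regions found in a single cell type was 2.58%. The members had fewer gastruloid-only than mESC-only regions in 4 of 4 genes, as 97.0% of genes with such regions did, so they were near the background here too. Of the 26 mESC regions, 73.1% were mESC-only (19 of 26, exact Clopper-Pearson 95% interval 52.2% to 88.4%), beside 63.5% over all genes, and 46.2% lay at a p300 region of mESCs (12 of 26, interval 26.6% to 66.6%), beside 42.4%.

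The Rxrα counts moved with the length of the lists. The gastruloid libraries had 25 and 3 peaks near the 4 genes and the mESC libraries had 36 and 28. Per 10000 peaks the values were 9.01 ± 0.9 in gastruloids and 8.60 ± 1.92 in mESCs (SD, n = 2 each), which overlapped (exact permutation p = 1). Without the short gastruloid replicate 2, taking each peak of replicate 1 as a region, 16 regions were gastruloid-only and 7 were shared, and at Lef1 the gastruloid-only count minus the mESC-only count was 2, against -2 with both replicates. In lists of equal length 1 region was gastruloid-only, 4 were mESC-only and none was shared, with no region of these classes at Lef1 or Tcf7. Whether list length accounts for the low number of gastruloid regions was not tested.

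**Figure D4:**
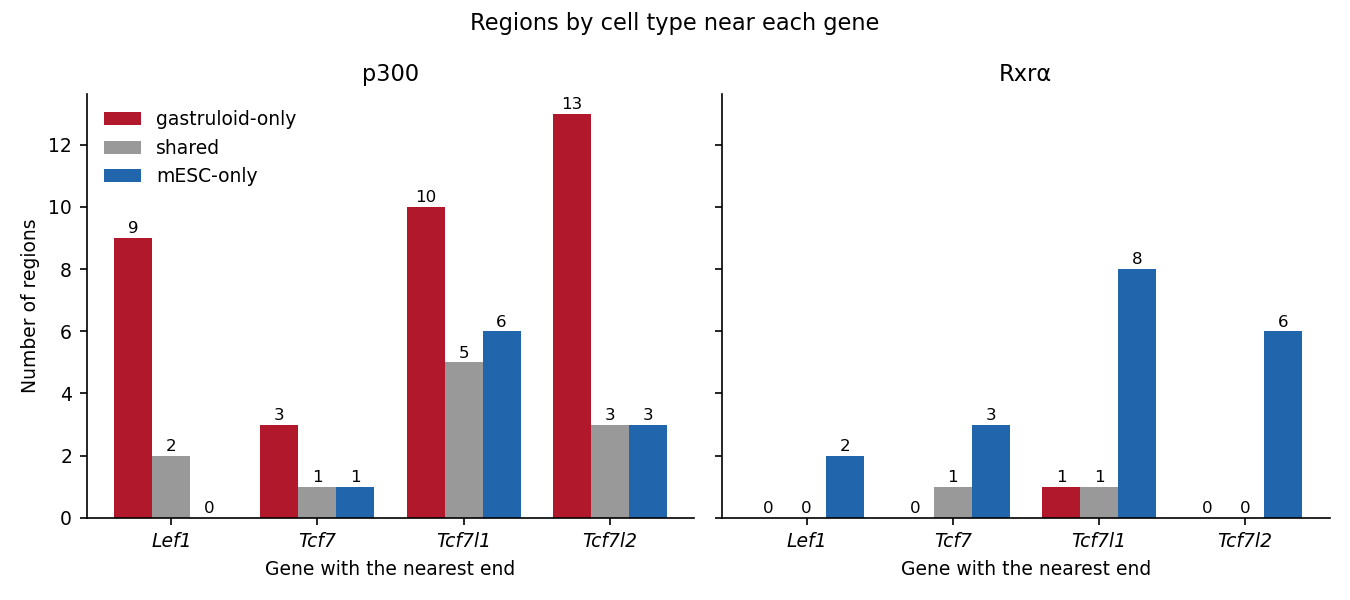
Number of regions near each gene that were gastruloid-only (red), shared (grey) or mESC-only (blue), for p300 on the left and Rxrα on the right. For p300 the gastruloid-only bar is the tallest at each gene (9, 3, 10 and 13), and for Rxrα the mESC-only bar is (2, 3, 8 and 6).

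Sp5 had 9 regions near the 4 genes, and each of them lay at a p300 region of gastruloids, as 84.9% of Sp5 regions near any gene did. There were 3 at Lef1, 1 at Tcf7, 4 at Tcf7l1 and 1 at Tcf7l2, beside 39.9% of all genes with any, and 5 of them lay away from the starts. Those 5 distal regions were 90.6 and 4.16 kb upstream of Lef1 and at 77.2, 111 and 134 kb in Tcf7l1. The strongest, at 77.2 kb in Tcf7l1, had folds of 19.6 and 12.4 from 96 and 69 fragments. With replicate 1 alone there were 17 Sp5 peaks near the family, of which 5 were at Tcf7l2, including peaks 122 and 135 kb inside that gene with folds of 5.84 and 5.14. Zeb2 had 7 regions, 2 at Lef1, none at Tcf7, 3 at Tcf7l1 and 2 at Tcf7l2, beside 33% of genes with any, and 6 of them lay at a p300 region of gastruloids, beside 78.1% over all genes. Of the Zeb2 regions only that 47.4 kb upstream of Tcf7l2 held no p300 peak, with folds of 7.79 and 4.20 and, in replicate 2, 8 fragments. Replicate 1 of Zeb2 alone had 42 peaks near the family and replicate 2 had 7.

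Most p300 regions of the family in gastruloids held no region of the other 3 proteins, which takes a peak in both replicates of a factor. Regions with only single-library peaks of these factors count among the 37 below. Of the 51, 3 held an Rxrα region (5.88%, 95% interval 1.23% to 16.2%, beside 4.28% over all genes), 9 an Sp5 region (17.6%, interval 8.40% to 30.9%, beside 20.9%), 6 a Zeb2 region (11.8%, interval 4.44% to 23.9%, beside 17.1%) and 37 none (72.5%, interval 58.3% to 84.1%, beside 70.4%). Each background share lay inside the exact Clopper-Pearson interval of the family, which covers counting error only. Regions of 1 locus are not replicates, so a difference between the family and all genes was not tested. Counting the peaks of replicate 1 alone, 15 of the 51 regions held Rxrα (beside 33.6%), 15 held Sp5 (beside 29.1%) and 25 held Zeb2 (beside 45.2%).

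Apart from those of Sp5, few regions lay at an end of a member. Within 1 kb of a gene end there were 4 of 51 p300 regions of gastruloids, beside 22.5% over all genes, and none of the 24 in mESCs, beside 8.86%. None of the 3 Rxrα regions of gastruloids (beside 43.2%) and none of the 26 of mESCs (beside 19.9%) was so placed. For Sp5 the number was 4 of 9 (beside 64.6%) and for Zeb2 1 of 7 (beside 49.4%). These shares depend on the number of regions per gene, since a gene has the same number of ends however many regions it holds. The background was not matched for this number, so a depletion at the gene ends was not tested. Counted per gene, each member had 1 p300 region of gastruloids within 1 kb of an end. All 4 had one at the promoter, beside 46.9% of genes with a promoter window. The regions of all groups fell on 75 distinct sites, 12 at Lef1, 10 at Tcf7, 26 at Tcf7l1 and 27 at Tcf7l2. Of these sites, 46 had a region of 1 group only and 11 had regions of 3 or more; 6 of those 11 were at Tcf7l1, 3 at Lef1, 1 at Tcf7 and 1 at Tcf7l2.

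Most genes of 3 further lists of the Wnt pathway had more gastruloid-only than mESC-only p300 regions. Among genes with such regions this held for 16 of 20 cofactors and corepressors and 19 of 22 target genes. For receptors and destruction complex genes it was 16 of 25, below the 69.8% of all genes with such regions. Among 21 β-catenin cofactors and Tcf corepressors, 16 had more of the gastruloid-only class, 3 had fewer, 1 had equal numbers and 1 had neither class, and 76.8% of their single-cell-type regions were gastruloid-only. The corepressor gene Tle3 had 14 of the first class and 5 of the second, and its paralog Tle4 had 8 and 1. Among 27 receptors and destruction complex genes the counts were 16 more, 4 fewer, 5 equal and 2 with neither, at 69.1%. Axin2, the scaffold that Wnt signalling induces, had 9 and 0, and Btrc, the ubiquitin ligase subunit that binds β-catenin, had 7 and 3. Among 24 Wnt target genes they were 19 more, 1 fewer, 2 equal and 2 with neither, at 79.4%; Znrf3, which removes Wnt receptors, had 11 and 5, and Rnf43, of the same kind, had 6 and 2; Axin2 is in this list too. These shares stand beside 77.8% for the 4 genes and 71.1% over all genes.

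The genes with the most similar numbers of regions over the 6 groups were found by the sum of absolute differences, among 16951 genes with a region in any group. For Lef1 these were Hs2st1, Lmo7 and Pkdcc, each 3 regions apart, the first of 4 such genes by name. For Tcf7 they were Atad2b, Babam2 and Fbln1, each 1 region apart, the first in the alphabet of 5 such genes. For Tcf7l1 they were Reep3, 4 apart, and Lpp and Zswim6, 6 apart. For Tcf7l2 they were Ncam1, 3 apart, and Frmd5 and Ldlrad3, 6 apart, the first by name of 5 genes at that difference. No member was among the nearest genes of another.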

How the data were processed

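The deposited files were 14 narrowPeak lists, 1 per library and not pooled, with 422096 peaks. The submitters' processing notes name MACS2 2.2.7, BWA 2.2.1 and fastp 0.20.1 and the build GRCm38.p6 (mm10); whether an input served as control is not given in the sources used here. Each deposited score equals 10 times the −log10 q without its decimals. The authors' fold is a ratio, summit signal over local background with 1 added to each, and the authors' −log10 p and −log10 q rate each peak; the lists reach a q of 0.05. The last deposited column is the position of the summit in the peak.

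Only the 21 main chromosomes were kept, without peaks that overlap an input peak. Peaks of the 2 replicates that overlapped by at least 1 bp were merged into regions, and regions were assigned to the nearest end of a RefSeq protein-coding gene of GRCm38 within 100 kb. The nearest gene need not be the gene a region acts on, and a peak's presence in a list depends on depth. Strand and promoter windows came from the RefSeq promoter table. Fragments at a summit were solved from the authors' fold and −log10 p and came out whole, within 0.01, for 99.5% or more of the solved peaks of each immunoprecipitation, which were 95.1% or more of its list; the library depth itself is unknown. Libraries were grouped by the antibody, line and cell type of their labels, and replicate numbers came from the titles. Peaks per library were compared by a two-sided exact permutation test; with 2 libraries against 2 the smallest p is 0.333, so no comparison can pass 0.05. Regions of 1 locus are not replicates, so shares carry exact Clopper-Pearson intervals at 95% for counting error only. The 4 genes, the pathway and marker lists and the rule for similar genes were chosen with earlier results of these data known. The genes named from each pathway list are those with the most regions of a single cell type; the mESC markers were named after their values were seen, and the strongest region per gene and group is that with the highest −log10 q; other sites were named after their values were seen. The steps were tested on simulated peaks. Alternatives covered the distance, the q threshold, list length, overlap, input peaks, the assignment and leaving out each replicate. Python 3.11.15, numpy 2.4.6, pandas 2.3.3, scipy 1.17.1 and matplotlib 3.10.9 were used.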

Additional observations from a re-analysis of the deposited data

Results flagged for a closer look

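Near Tcf7l1 the unscaled number of peaks per library moved in opposite directions for p300 and Rxrα. For p300 both gastruloid libraries (18 and 18 peaks) were above both mESC libraries (17 and 14), a mean difference of 2.5 peaks. For Rxrα both gastruloid libraries (7 and 2) were below both mESC libraries (14 and 12), a mean difference of -8.5 peaks. The difference between the 2 proteins was not tested. The Rxrα gastruloid lists held 29867 and 3111 peaks and the mESC lists 49661 and 28112, and the part of list length in these numbers was not tested; per 10000 peaks the directions were the reverse, at -1.27 for p300 and 0.842 for Rxrα, and the Rxrα libraries overlapped.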

How the results depend on the processing

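Values that answer a comparison and moved by more than 1.5 times or turned round follow. The cause was not tested, including where fewer peaks or libraries were used. Within 20 kb in place of 100 kb, p300 had 14 gastruloid-only, 4 mESC-only and 5 shared regions, Rxrα had 0, 11 and 1, Sp5 had 5 and Zeb2 had 2, and p300 regions of gastruloids held Rxrα at 1, Sp5 at 5 and Zeb2 at 2. With a −log10 q of at least 5, Rxrα had 0 gastruloid-only and 1 shared region, 1 p300 region held Rxrα, and Zeb2 had 4 regions. In lists shortened to the shortest of those compared, p300 had 21 gastruloid-only and 7 shared regions, Rxrα had 4 mESC-only and 0 shared, 0 p300 regions held Rxrα and 1 held Sp5, and Tcf7l1 had a p300 difference (gastruloid-only minus mESC-only) of -3. Counting every region inside a gene or within 100 kb of its ends, p300 had 18 mESC-only and 18 shared regions and Rxrα had 33 mESC-only. With a factor peak in either replicate, chosen after seeing the data, p300 regions held Rxrα at 15, Sp5 at 15 and Zeb2 at 25. The Rxrα difference in peaks per 10000 was 0.402, and unscaled it was -18 peaks.

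Leaving out 1 replicate at a time gave 35 to 47 gastruloid-only, 11 to 16 mESC-only and 11 to 16 shared p300 regions, the 16 mESC-only without p300 mESC replicate 2. For Rxrα it gave 1 to 16, 19 to 28 and 2 to 7, and a difference in peaks per 10000 of -0.953 to 1.76, negative without gastruloid replicate 2 and without mESC replicate 1. The Lef1 count of gastruloid-only minus mESC-only Rxrα regions, -2 with all libraries, ran from -7 to 2, the last without gastruloid replicate 2. Sp5 regions ran from 9 to 17, Zeb2 regions from 7 to 42, and p300 regions with Rxrα from 3 to 15, with Sp5 from 9 to 15 and with Zeb2 from 6 to 25, the highest without replicate 2 of the factor. The share differences (gastruloids minus mESCs, in points) were 13.9 for Lef1, -0.0205 for Tcf7, -23.7 for Tcf7l1 and 9.85 for Tcf7l2. They were 11.1, -6.41, -14.5 and 9.81 within 20 kb, 15.9, 3.93, -23.2 and 3.41 under the stricter q, 20.6, 4.16, -26.0 and 1.26 in lists of equal length, and 7.77, -8.03, -9.75 and 10 when every peak near a gene was counted. The p300 difference ran from 1.16 to 2.2, and with 1 library left out the share difference of Tcf7 ran from -3.16 to 3.12 and that of Tcf7l1 from -27.4 to -20.0 points. With the replicate number as a block the p300 difference stayed 1.68 with p = 0.5, the smallest an exact test on 2 pairs allows, and that of Rxrα had p = 1; nothing shows that equal numbers pair the libraries.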
